A study of Caenorhabditis elegans with 2 samples.

Results

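The genes jun-1 and fos-1 encode the Jun and Fos members of the AP-1 transcription factors in Caenorhabditis elegans, and the data show where the bZIP factor CEBP-1 was bound at these 2 of 19973 protein-coding genes. A peak was assigned to a gene when its summit, the point of the peak that the authors marked, lay between 2000 bp upstream of any annotated 5′ end and the end of the gene. Of the 1546 peaks in the series' conservative list, 3 met this rule: 2 at jun-1 and 1 at fos-1.

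The worms were of strain RW12290, in which a TY1, EGFP and 3xFLAG tag sits on the endogenous cebp-1 gene (st12290) on chromosome X. They were whole young adults of 62 hours, synchronised as starved first-stage larvae after bleaching, and chromatin sonicated to 200 to 800 bp was precipitated with an antibody against GFP, as the sample description has it, while the antibody label reads cebp-1. There was 1 group of 2 biological replicates, both carrying the tag, and no untagged animal, input or treatment was analysed here. Thus no comparison between groups and no test could be made. Whole animals were used, so a peak does not say in which tissue the factor was bound.

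AP-1 factors bind DNA as dimers of basic leucine zipper (bZIP) proteins, classically a Jun with a Fos. In C. elegans, fos-1 is known for its role in the anchor cell, which needs it to invade through basement membrane, and jun-1 and fos-1 together are known to act in the spermatheca during ovulation. Both CEBP-1 and FOS-1 are known to act below stress-activated kinases in axon regeneration, CEBP-1 below DLK-1 and FOS-1 below the JNK family kinase KGB-1.

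The sequences under the 3 summits are shown because each of them held the 8-base word TTGCGAAA, the word that led an earlier search of 8-base words under the summits of the same list, these 3 included, so its presence is described and not tested. Each window runs 100 bp to either side of the conservative summit on the plus strand of WBcel235, the assembly also called ce11, at chrII:9128301-9128501, chrII:9117962-9118162 and chrV:6012488-6012688. Capitals mark the word, which reads TTTCGCAA in the first window, where it lies on the minus strand.

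jun-1 stronger peak: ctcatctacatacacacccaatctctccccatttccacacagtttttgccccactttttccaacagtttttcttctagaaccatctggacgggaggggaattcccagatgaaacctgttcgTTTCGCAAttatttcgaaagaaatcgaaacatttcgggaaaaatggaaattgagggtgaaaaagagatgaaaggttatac
jun-1 weaker peak: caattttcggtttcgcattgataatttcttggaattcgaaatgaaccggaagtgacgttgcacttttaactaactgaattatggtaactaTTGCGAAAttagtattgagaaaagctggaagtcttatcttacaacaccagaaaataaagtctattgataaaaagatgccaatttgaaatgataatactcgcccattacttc
fos-1 peak: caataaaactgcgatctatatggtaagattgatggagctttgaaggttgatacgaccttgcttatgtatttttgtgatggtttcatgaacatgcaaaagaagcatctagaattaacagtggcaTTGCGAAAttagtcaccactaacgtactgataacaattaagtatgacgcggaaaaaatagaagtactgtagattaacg

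The gene jun-1 (WBGene00012005) spans chromosome II 9113157 to 9132231 on the plus strand, with 9 annotated transcripts that begin at 9 different 5′ ends and encode 101 to 319 residues. Both of its thresholded peaks lay inside the gene, in introns, and each was followed by the start of a further transcript. The stronger peak spanned II 9128297 to 9128517, with its summit at 9128401, which is 15244 bp downstream of the first 5′ end of the gene. It fell in an intron of the 7 transcripts that cross it, 1064 bp after the start of T24H10.7d.1 and 990 bp before that of T24H10.7e.1. The weaker peak spanned II 9117987 to 9118073, with its summit at 9118062. It fell in an intron of the 2 transcripts that cross it and 361 bp before the start of T24H10.7f.1, so 7 of the 9 annotated starts lie downstream of it.

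The strength of a peak is given here by a signal value that the authors assigned, with no scaling named, and by its rank within a list. The signal of the stronger jun-1 peak was 205.8 in replicate 1 and 185.0 in replicate 2, and it ranked 124 of 1488 and 70 of 797 in their thresholded lists. In the conservative list it had a signal of 392.5 and ranked 93 of 1546, in the upper 6.02%, at 3.40 times the list's median of 115.5. It was thus a strong peak in both replicates.

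The signal of the weaker jun-1 peak was 135.7 in replicate 1 and 74.3 in replicate 2. It ranked 254 of 1488 in replicate 1 and 399 of 797 in replicate 2, so it lay in the upper 17.1% of the first list and at the middle of the second, where its signal equalled the median. Its conservative signal was 211.7 at rank 290. The irreproducible discovery rate (IDR), which falls as a peak repeats better between lists, was 3.62e-05 for it in the conservative list and 1e-05, the lowest value the files hold, for the stronger one. The summits of the replicates lay 7 bp apart at the stronger peak and 35 bp apart at the weaker one.

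**Figure D1:**
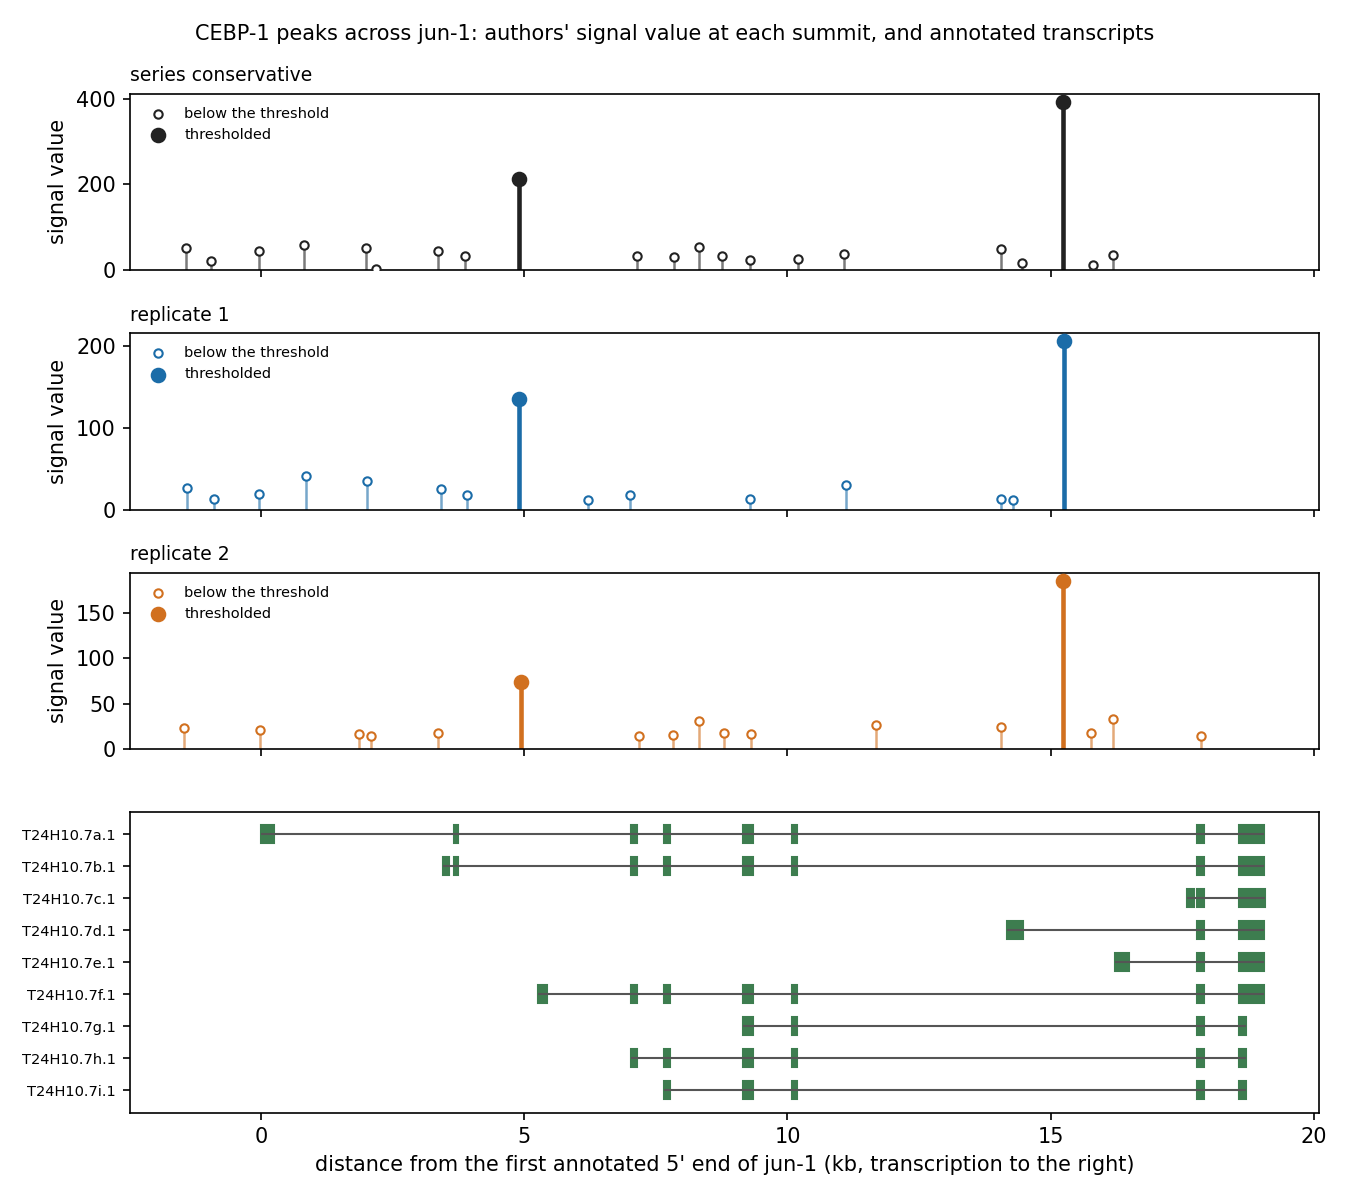
Peaks across jun-1: horizontal position is the distance of each summit from the first annotated 5′ end in kb, vertical position is the authors' signal value in the conservative series list and in each replicate, filled points are thresholded and open points are ranked below the threshold, and the lowest panel shows the 9 transcripts with exons as boxes. The filled points stand at the same 2 places in every panel, 4905 and 15244 bp from the first 5′ end in the series list.

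The gene fos-1 (WBGene00001345) spans chromosome V 6003601 to 6016087 on the plus strand and has 6 annotated transcripts with 6 different 5′ ends. Of these, 5 share a coding sequence of 331 residues, and F29G9.4b.1 encodes 467. Its peak spanned V 6012436 to 6012739, with the summit at 6012588 in an intron of all 6 transcripts. Unlike the jun-1 summits it lay downstream of every annotated start of its gene, 1377 bp past the last of them, that of F29G9.4a.5. The non-coding gene F29G9.14, on the minus strand at V 6010693 to 6010747, has the same summit in its own window, 1841 bp upstream of its 5′ end, and no other annotated gene shares a thresholded summit with jun-1 or fos-1 by this rule.

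At fos-1 the replicates differed. In replicate 1 the peak had a signal of 102.7 and ranked 416 of 1488 thresholded peaks, in the upper 28.0%. In replicate 2 the overlapping peak had a signal of 42.6 with its summit 66 bp away, and an IDR of 0.219 kept it out of the thresholded list, which held 0 peaks at fos-1. The conservative list, which draws on both replicates, gave the peak a signal of 143.1, rank 548 of 1546 and an IDR of 0.000699. It was 1 of 470 conservative peaks (30.4%) that overlapped a thresholded peak of replicate 1 only, whereas both jun-1 peaks were among the 686 (44.4%) that overlapped one in each replicate.

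**Figure D2:**
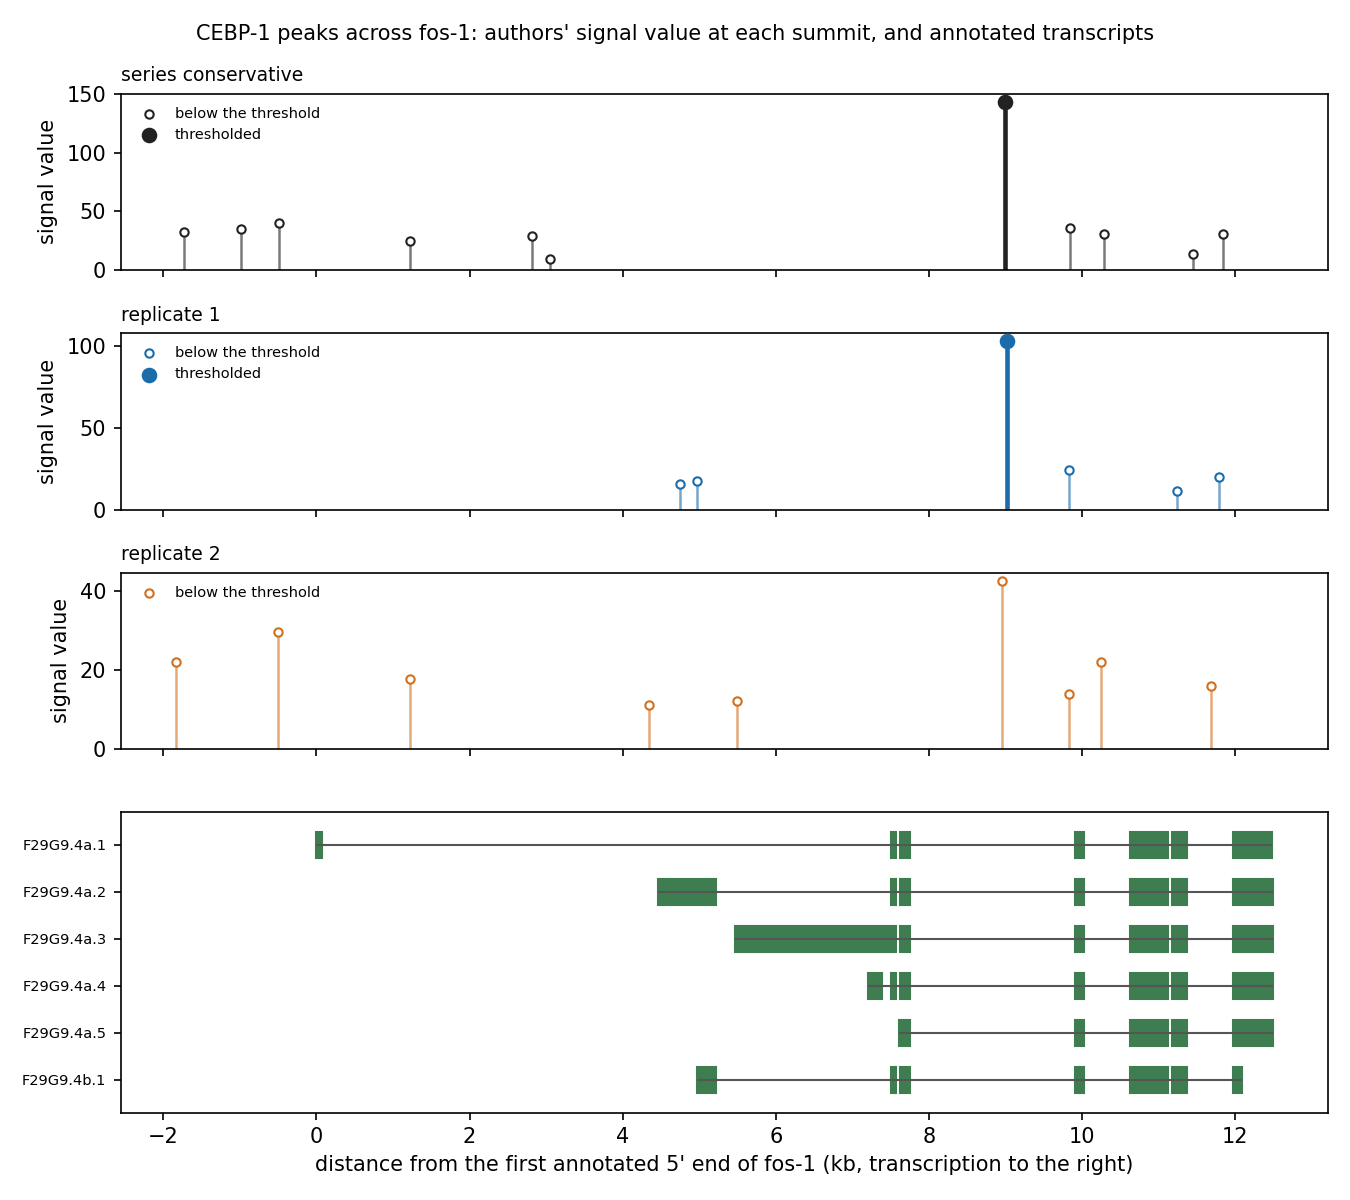
Peaks across fos-1, drawn as for jun-1, with the 6 transcripts in the lowest panel. The filled point of the series list stands 8987 bp past the first 5′ end, downstream of every transcript start; replicate 2 has no filled point, and its highest open point, at 42.6, stands at the same place.

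The full ranked lists hold peaks on either side of the threshold, and since they differ in length, ranks are also given as a share of the list. The fos-1 peak ranked 429 of 33933 in replicate 1, in the upper 1.26%, and 1399 of 39805 in replicate 2, in the upper 3.51%. The stronger jun-1 peak ranked 129 in replicate 1 (0.380%) and 79 in replicate 2 (0.198%), and the weaker one 263 (0.775%) and 437 (1.10%). The scales of the 2 lists may differ, so signal ratios between them were read only against the ratio over all peaks. The ratio of replicate 1 signal to replicate 2 signal was 2.41 at fos-1, 1.83 at the weaker jun-1 peak and 1.11 at the stronger one, against a median of 1.27 (interquartile range 1.02 to 1.58) over the 1525 conservative peaks ranked in both replicates. A higher ratio than that of fos-1 was found at 3.21% of those peaks. Relative to the other peaks, fos-1 was thus stronger in replicate 1, and the stronger jun-1 peak stood near the median ratio.

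**Figure D3:**
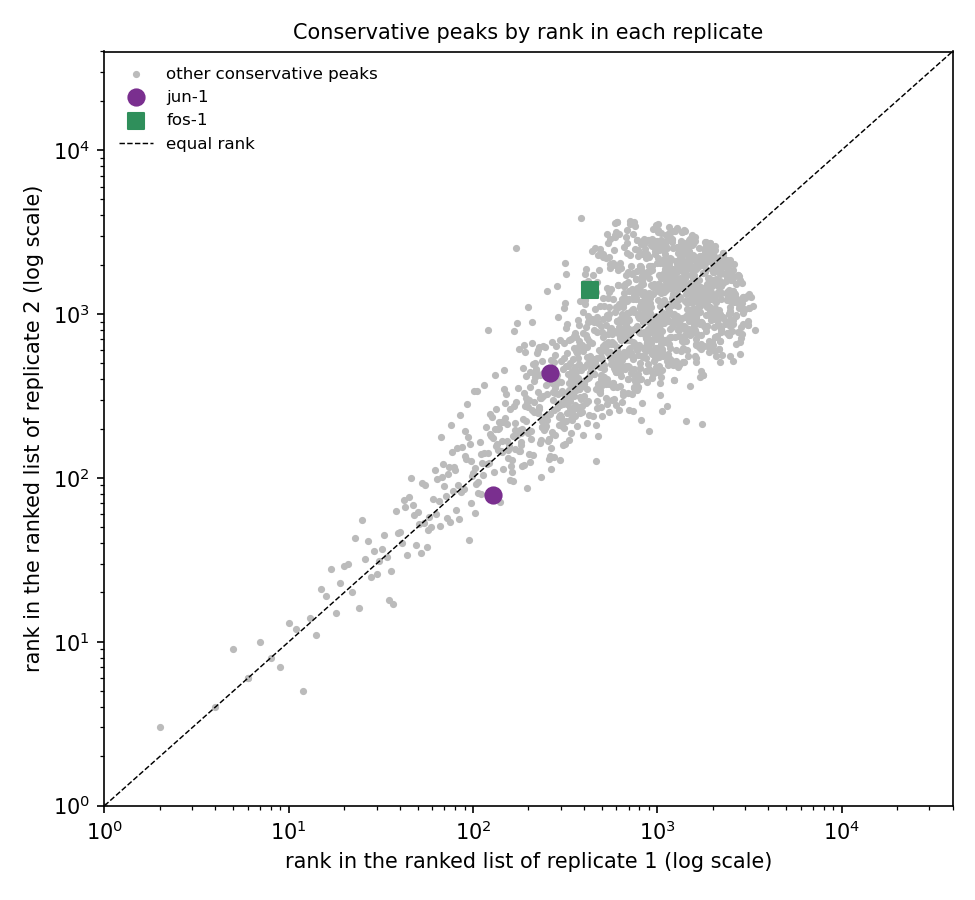
Rank of each conservative peak in the ranked list of replicate 1 (horizontal, log scale) and replicate 2 (vertical, log scale), with rank 1 the strongest and the dashed line marking equal ranks in lists of 33933 and 39805 peaks. The stronger jun-1 peak (129 and 79) lies below the line, and the weaker jun-1 peak (263 and 437) and the fos-1 peak (429 and 1399) lie above it.

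**Figure D4:**
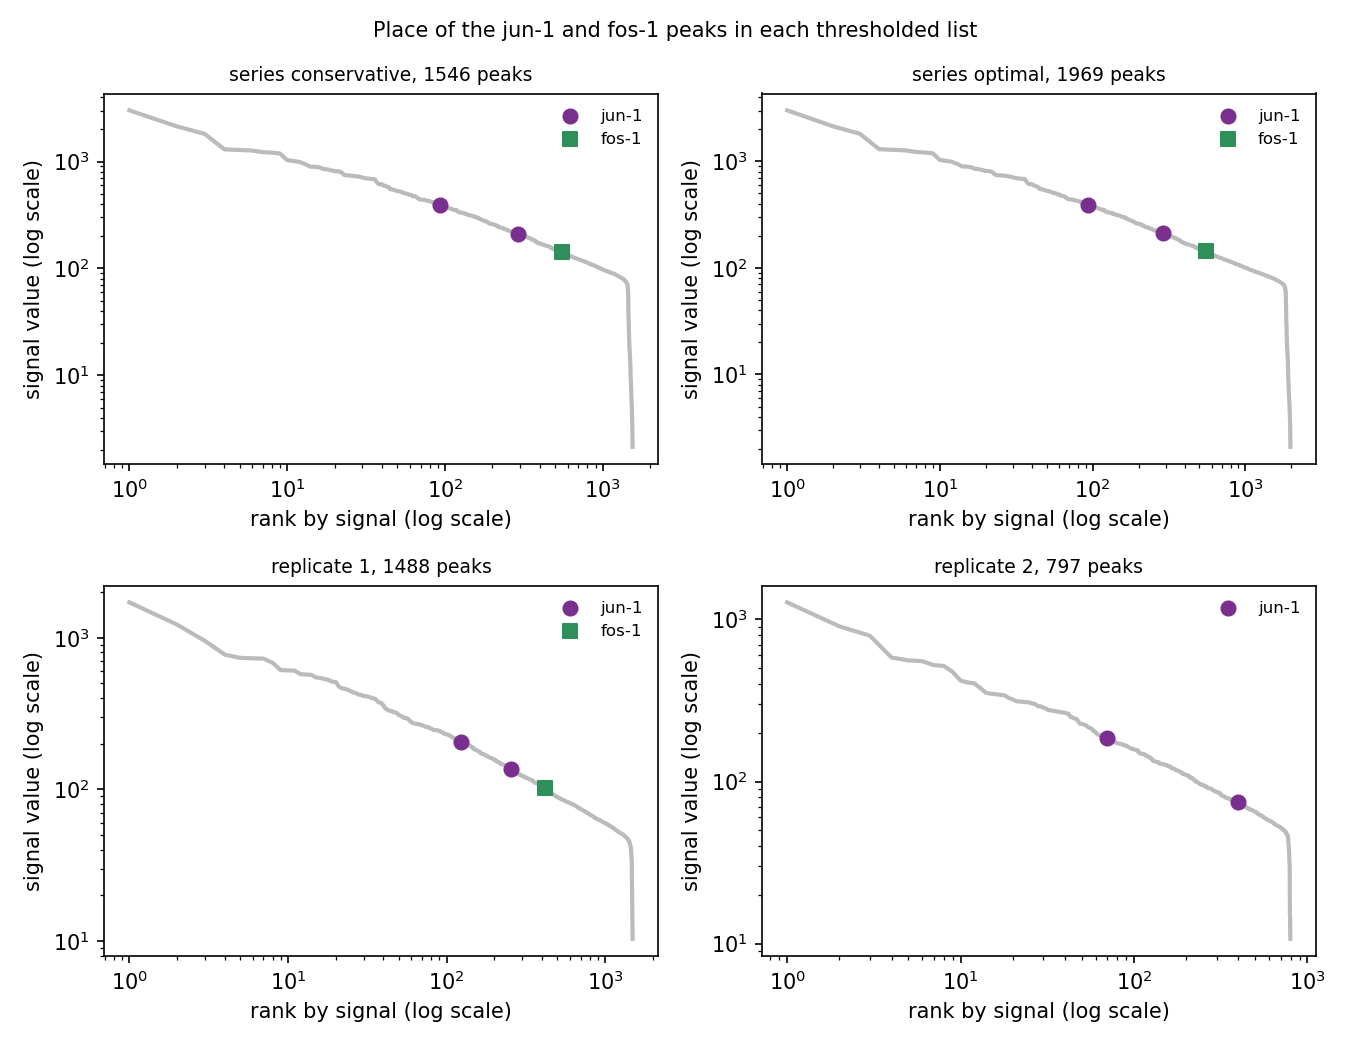
Signal value against rank by signal, both on log scales, in the 4 thresholded lists, with the jun-1 peaks as circles and the fos-1 peak as a square. The jun-1 circles stand at ranks 93 and 290 of the conservative list and the fos-1 square at 548, and the replicate 2 panel has no square.

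A thresholded summit in the window was found at 1522 protein-coding genes in the conservative list (7.62%). The share was 9.49% in the optimal list, 8.02% in the list of replicate 1 and 4.48% in that of replicate 2. Having 2 or more summits, as jun-1 did, was less common, at 1.22% of genes. Both genes are long, however, with windows of 21075 bp for jun-1 and 14487 bp for fos-1 against a median of 4027 bp. Among the 633 protein-coding genes with a window at least as long as that of fos-1, 14.4% had a summit and 5.37% had 2 or more. The share was not taken apart for the 222 genes with a window at least as long as that of jun-1. With a narrower rule, 1000 bp upstream to 200 bp downstream of an annotated 5′ end, which 5.06% of genes met, jun-1 kept both summits and fos-1 had none. That share counts genes with at least 1 such summit, and the share with 2 or more was not taken. It is not matched for window length or for the number of 5′ ends, of which jun-1 has 9. The stronger jun-1 summit met the narrower rule only just, at 990 bp upstream of the start of T24H10.7e.1.

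Below the threshold the windows held many further ranked peaks, all weaker than the thresholded ones of the same list. In the conservative ranking jun-1 had 19 of them with signals of 3.89 to 59.7, and its weaker thresholded peak was 3.55 times the highest. The gene fos-1 had 10, from 9.64 to 40.2, and its thresholded peak was 3.56 times the highest. The first annotated 5′ end of either gene was among these weak places. A peak 46 bp upstream of the first jun-1 start had a signal of 45.6 and an IDR of 0.422, and one 488 bp upstream of the first fos-1 start had 40.2 and an IDR of 0.725. The contrast was smaller in replicate 2. There the weaker thresholded jun-1 peak was 2.25 times the highest of the others, against 3.28 times in replicate 1. The fos-1 peak was 4.20 times the highest in replicate 1. In replicate 2 it was itself below the threshold at 42.6, and a peak 503 bp upstream of the first fos-1 start had 29.6. The binding that passed the threshold was thus internal to both genes.

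The word TTGCGAAA was within 100 bp of the summit in all 3 peaks, against 442 of 1546 conservative peaks (28.6%, 95% Wilson interval 26.4 to 30.9%). At the stronger jun-1 peak it lay at II 9128422 to 9128429 on the minus strand, with its centre 24.5 bp from the summit. At the weaker jun-1 peak it lay at II 9118052 to 9118059 on the plus strand, 6.5 bp from the summit, and at fos-1 at V 6012611 to 6012618 on the plus strand, 26.5 bp away. The weak replicate 2 peak at fos-1 also covered the word, with its own summit 56.5 bp from it. Of the 92 peaks stronger than the first jun-1 peak 71 also held the word, so its presence is usual among the strongest peaks. The share was 63.7% among the 289 peaks above the weaker jun-1 peak and 51.2% among the 547 above the fos-1 peak. These shares cover all stronger peaks, and the share at peaks of like rank was not taken.

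The word also occurred at 2 other places in the jun-1 window, and there it came with weak peaks only. At II 9115145 to 9115152 it lay under a ranked peak with a conservative signal of 52.4, and with 35.6 in replicate 1 and 14.6 in replicate 2. At II 9124228 to 9124235 the signals were 38.7 in the conservative ranking and 30.8 in replicate 1, with no overlapping ranked peak in replicate 2. In the fos-1 window the word at the summit was the only one. Over the nuclear chromosomes 489 of 7892 copies (6.20%) lay within 100 bp of a conservative summit, so most copies were not under a listed peak.

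Read in the direction of the word, with 12 bases on either side and the word in capitals, the 3 sites show how far the match extends. Their coordinates are chrII:9128410-9128441 on the minus strand, chrII:9118040-9118071 on the plus strand and chrV:6012599-6012630 on the plus strand.

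jun-1 stronger peak: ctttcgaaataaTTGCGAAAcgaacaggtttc
jun-1 weaker peak: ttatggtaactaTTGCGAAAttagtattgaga
fos-1 peak: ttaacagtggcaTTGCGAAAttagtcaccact

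All 3 sites had A before the word, giving ATTGCGAAA, which was in 286 conservative peaks (64.7% of those with the word) and made up 30.8% of the copies of the word over the nuclear chromosomes. The weaker jun-1 site and the fos-1 site shared a longer run, ATTGCGAAATTAGT, of 14 bases. This run occurred 4 times in the nuclear genome and under 3 conservative peaks: the weaker jun-1 peak, the fos-1 peak and a peak in the window of the cytochrome P450 gene cyp-43A1, where the run lies at X 5714250 to 5714263. The last peak had signals of 81.1 in replicate 1, 56.0 in replicate 2 and 139.1 in the conservative list, close to the 143.1 of fos-1. The remaining copy lay under no ranked peak of the conservative ranking. The run was noticed in these sequences and was not tested.

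Other words were searched on both strands in the same windows. The AP-1 site TGANTCA was in none of the 3 windows and in 8.73% of all conservative peaks, and the CRE word TGACGTCA was in none and in 1.55%. The C/EBP words TTGCGTAA and TTGCGCAA, the word TTACGTAA and the C/EBP-ATF composite TTGCATCA were also in none. Their shares over all peaks were 0.776%, 1.03%, 0.194% and 1.81%. The E-box CACGTG (8.21%) and the TATA word TATAAA (15.6%) were absent from the 3 windows. The word TTGCNNAA (39.7%) was found only where it overlaps TTGCGAAA, and GAGAGA (31.6%) was found in the window of the stronger jun-1 peak. The GC content of the windows was 40.8% at the stronger jun-1 peak, 32.8% at the weaker one and 35.3% at fos-1, below the median of 42.3% over all conservative peaks.

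Other genes of the bZIP family were also bound. Of the 29 annotated genes in a list of the family, jun-1 and fos-1 included, 14 had a conservative summit in the window (48.3%, against 7.62% of all protein-coding genes). Of these 14, 12 were other than jun-1 and fos-1, cebp-1 itself among them. The family list, like the gene lists below, was written with earlier results of these data known. The strongest conservative peak overlapped a thresholded peak in both replicates at 7 of the 14, in 1 only at 4 and in neither at 3. In the list of replicate 1 a summit was found at 13 of the 29 genes (44.8%, against 8.02%), jun-1 and fos-1 among them. That of replicate 2 had 7 (24.1%, against 4.48%), with jun-1 and without fos-1. Window length was not matched, with a median of 5865 bp in the list and 4027 bp over all genes. The median signal of the strongest peaks of the 14 genes, jun-1 and fos-1 included, was 181.5, against 128.9 over all 1522 genes with a summit. By this signal jun-1 took place 5 and fos-1 place 9 of the 14. The genes above jun-1 were xbp-1, the factor of the endoplasmic reticulum stress response, cebp-1 itself, zip-2, a factor of the response to translation block and infection, and zip-9. The peaks of jun-1 and zip-9 had nearly equal signals, with 205.8 at jun-1 and 206.4 at zip-9 in replicate 1. The replicate 2 signals were 185.0 at jun-1 and 186.3 at zip-9. The next gene, let-607, was lower in each replicate, at 166.8 and 116.5.

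Around fos-1 the order was less firm. The gene just above it, zip-5, had 92.1 in replicate 1 and 62.6 in replicate 2, so the order of fos-1 (102.7 and 42.6) and zip-5 was opposite in the replicates. The gene just below, atfs-1, the factor of the mitochondrial stress response, had 64.3 and 40.2, lower than fos-1 in each. At least 2 summits were found at 3 of the 29 genes, jun-1, zip-5 and the oxidative stress factor skn-1. The share was 1.22% over all protein-coding genes and 5.37% over those with a window at least as long as that of fos-1. TTGCGAAA was within 100 bp of the strongest summit at 7 of the 14 genes, jun-1 and fos-1 among them. Over all conservative peaks the share with the word was 28.6%, and among those stronger than the fos-1 peak it was 51.2%. Peak strength was not matched in this count.

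**Figure D5:**
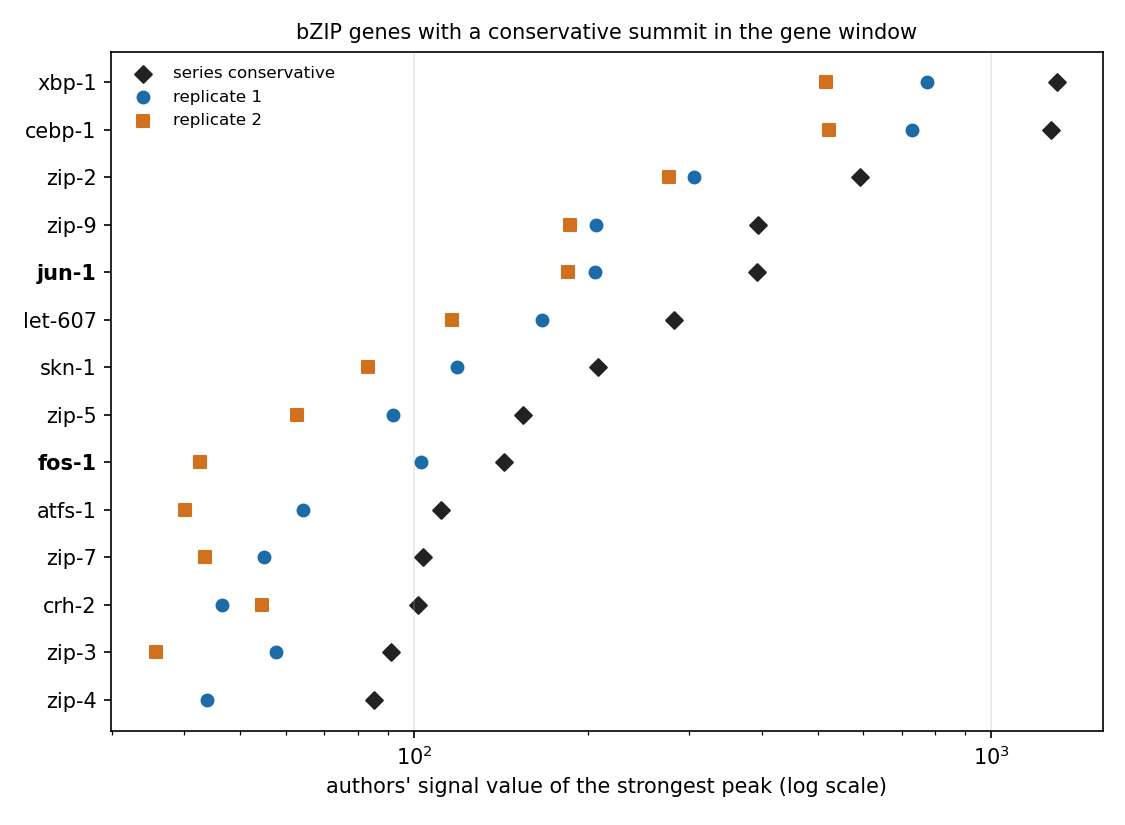
Signal value (log scale) of the strongest conservative peak at each of the 14 bZIP genes with a summit in the window, with diamonds for the series list and circles and squares for the overlapping ranked peaks of replicates 1 and 2. The points of jun-1 stand beside those of zip-9, and fos-1 has a wider gap between replicates than any gene above it in the series list; zip-4 has no overlapping peak in replicate 2.

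Of 17 genes of the JNK and DLK-1 pathways 5 had a conservative summit (29.4%, against 7.62% of all protein-coding genes, with window length not matched): cebp-1, the phosphatase gene vhp-1, which is known to inactivate KGB-1, the kinase genes dlk-1 and max-2, and the receptor gene svh-2. The gene cebp-1 is also in the bZIP list. The median window was 7707 bp in the list and 4027 bp over all genes. The list of replicate 1 had 6 of the 17 (35.3%, against 8.02%), with mak-2 added, and that of replicate 2 had 4 (23.5%, against 4.48%). After cebp-1, vhp-1 was the strongest, with 3 summits and signals of 204.3 in replicate 1, 75.3 in replicate 2 and 277.4 in the conservative list. The signals of dlk-1, max-2 and svh-2 in that list were 128.8, 123.9 and 89.8. The kinase genes kgb-1, kgb-2, jnk-1, jkk-1, mek-1, mlk-1, mkk-4, pmk-3 and mak-2 had no conservative summit, nor had rpm-1, svh-1 and mig-2. The median over the 5 was 128.8, against 128.9 over all genes with a summit.

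Of 12 genes known from anchor cell invasion and ovulation only him-4 had a conservative summit (8.33%, against 7.62% of all genes). It encodes the matrix protein hemicentin. The shares are not matched for window length, with a median of 11581.5 bp in the list and 4027 bp over all genes. The optimal list had 2, him-4 and lfe-2, and that of replicate 1 had 2, plc-1 and lfe-2 (16.7% each, against 9.49% and 8.02%). The list of replicate 2 had 1, him-4 (8.33%, against 4.48%). The him-4 signals were 39.7 in replicate 1, 49.8 in replicate 2 and 90.1 in the conservative list. Its peak was thresholded in replicate 2 and not in replicate 1. The matrix protease gene zmp-1, the cadherin gene cdh-3, the regulators egl-43, hlh-2 and nhr-67, the ligand and receptor genes lin-3 and let-23, and the phosphoinositide signalling genes plc-1, itr-1, lfe-2 and ipp-5 had no conservative summit.

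The genes whose binding was most like that of each AP-1 gene were taken by the distance between log10 ranks of the strongest peak in the 2 replicates' ranked lists, over 12959 protein-coding genes. Nearest to jun-1 were F17C11.26 and zip-9, which had the same peak (ranks 127 and 76 in replicates 1 and 2, against 129 and 79 for jun-1), then unc-23 (140 and 71) and Y57G11C.8 (117 and 88). Nearest to fos-1 were C29H12.2 and the tRNA synthetase gene rars-2, which had the same ranks of 437 and 1475, against 429 and 1399 for fos-1. Then came R74.7 and the ribosome rescue gene pelo-1, both with 441 and 1479. Within each of these pairs the signals were also identical in both replicates, so the genes of a pair are not separate likenesses. These likenesses rest on 2 values a gene.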

How the data were processed

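ChIP-seq peak lists of 2 biological replicates were used. Per the deposited file notes, the authors derived the peaks on assembly ce11 from the replicates' alignments with a control alignment, and ranked them by IDR. The aligner, caller and parameters: not given in the sources used here. The files hold 4 thresholded and 4 ranked lists: 1 pair for each replicate and 2 for the series (conservative and optimal). Each peak has a deposited IDR score, 830 or more in every thresholded list, a deposited signal value, a summit offset and, in the ranked lists, a deposited −log10 of the global IDR. All thresholded peaks were matched to a ranked list. Signals were ranked and described within a list, except for ratios between the replicates at the same peak, which were set beside the ratio over all peaks. Depth is unknown.

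Genes were those of Ensembl release 115 on WBcel235, whose chromosomes contain every peak. Sequences were read from the RefSeq genome of that assembly. A replicate's value at a conservative peak is that of the strongest overlapping ranked peak (at least 1 bp). No test was run. Wilson intervals cover counting error only and treat genes or peaks as independent. The genes and lists were chosen with earlier results of these data known. The bZIP list had 30 names, of which atf-5 was not matched. The rule for named genes took jun-1, fos-1, genes sharing their summits, list members with a conservative summit and the 4 most alike genes; list members without a summit and cyp-43A1 were named after their values were seen. The assignment and word search were checked on simulated data. Python 3.11.15, numpy 2.4.6, pandas 2.3.3, pysam 0.24.0 and matplotlib 3.10.9 were used.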

Additional observations from a re-analysis of the deposited data

How the results depend on the processing

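Over 10 results and 58 alternatives, 40 values stayed within the limits set for them and 18 did not. The 2 summits of jun-1 and their words were found under every alternative run. The number of thresholded fos-1 summits was 1 in the list of replicate 1 alone and 0 in that of replicate 2 alone, so the word count, which needs a summit, was 1 and 0 as well. For the fos-1 summit the rule of 1000 bp upstream to 200 bp downstream of a 5′ end, an alternative added after the data were seen, gave 0. By signal, jun-1 lay in the upper 6.02% of the conservative list, 4.72% of the optimal list, 6.40% with overlapping intervals merged, and 8.33 to 8.78% of the replicates' own lists. The fos-1 peak lay in the upper 35.4%, 27.8% in the optimal list, 28.0% in replicate 1 alone and 47.9% when ranked by IDR. In place of 1522 protein-coding genes with a summit there were 895 to 1602 in the replicates' own lists and 1010 by the promoter rule, and 2322 of all annotated genes. The 14 bZIP genes became 7 to 13 in the replicates' own lists, the 5 pathway genes became 3 by the promoter rule, and the 1 anchor cell or ovulation gene became 2 in the optimal list, 1 to 2 in the replicates' own lists and 0 by the promoter rule. No paired analysis was possible because there was 1 group. Depth is unknown, and its part in the lower fos-1 signal of replicate 2 was not tested.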
